A study of Mus musculus with 5 samples.

Results

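The genes described here carry the names Vps (vacuolar protein sorting), Snx (sorting nexin) and Chmp (charged multivesicular body protein). They were taken by name from the deposited table, which holds 49875 gene IDs, and 74 matched: 34 Vps, 30 Snx and 10 Chmp genes. The table comes from RNA immunoprecipitation sequencing (RIP-seq) of wild-type mouse neocortex at E13.5 (embryonic day), the stage when progenitors produce deep-layer neurons, with no other genotype or treatment in any group. Cytoplasmic lysate of dissociated cortical cells was either kept as Input (2 libraries) or precipitated with an antibody against eIF4E, the protein that binds the mRNA cap (2 libraries), or with rabbit control IgG (1 library). The labels call the numbered libraries biological replicates and do not say which embryos or litters they came from. The p-values below therefore measure only the spread between these libraries.

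These genes encode most of the machinery that sorts membrane proteins through endosomes. The ESCRT complexes pull ubiquitinated receptors into the inner vesicles of late endosomes, the HOPS complex tethers those endosomes to lysosomes, and retromer, retriever and many sorting nexins send cargo back to the cell surface or the Golgi. In the developing cortex such sorting handles growth factor, Notch and adhesion receptors of neural progenitors and young neurons. In cells, eIF4E on the cap helps to bring ribosomes to an mRNA. The eIF4E libraries set against Input ask which of these messages were over- or under-represented in the precipitate, and the IgG library shows what was recovered without that antibody.

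Values are abundances per transcript length, TPM or FPKM (the header does not say which), and the depth behind them is unknown. Library totals ran from 560076 (IgG) to 848550 (Input 2), and 11825 genes were above 0 in IgG against 17412 to 18745 in the other libraries. The cortical markers Emx1, Pax6, Tbr1 and Neurod6 were present in every library (lowest value 16.08, Tbr1 in Input), but not evenly: Emx1 was lower in eIF4E (80.72 and 80.97) than in Input (219.17 and 222.04), and Pax6 was higher (62.35 and 60.42 against 23.58 and 25.94). Of the marker lists, intermediate progenitors and neurons had 8 of 10 genes higher and 1 lower in eIF4E than in Input (median log2 change 0.72), dorsal progenitors 5 higher and 4 lower of 10, and ventral forebrain 5 higher and 2 lower of 7 tested. All 8 erythroid markers were lower in eIF4E, with summed abundances of 4843 to 6446 against 17160 to 18690 in Input and 2521 in IgG, and 4 of 7 tested microglial markers were also lower (sums 20.54 to 27.04 against 51.54 to 60.43). Of the endothelial and mural markers, 4 of 8 tested were lower and 1 was higher (sums 61.18 to 61.42 against 130.6 to 138.6), and of the meningeal markers 4 of 6 were lower and 2 higher (99.65 to 103.7 against 157.1 to 168.7, and 362.9 in IgG). The part of these other cells in the values below was not tested. A lower value in eIF4E than in Input is a lower share in the precipitate and is no measure of cell number. In bulk lysate the number of cells of a type and their RNA per cell cannot be told apart either.

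Of the 74 genes, 71 reached an abundance of 1 in at least 2 libraries and were tested with limma on log2(value + 1), with p-values adjusted over all 12769 genes tested. Folds below are on that scale of value + 1, which understates changes of low genes. The other 3 were Snx31 (0 to 0.06 over the 5 libraries), Snx20 (0 to 0.73) and Chmp4c (0 to 0.13). In eIF4E against Input, 39 of the 71 were higher (54.9%) and 18 were lower (25.4%), at an adjusted p under 0.05, while 43.3% of all genes tested were higher and 30.6% lower. Their median log2 fold change was 0.42, and that of all genes was 0.16. A change of at least 2-fold was reached by 22 genes upward, against 23.3% of all genes, and by 1 gene downward (Vps51), against 7.26%.

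In 7 genes the abundance was below 1 in both Input libraries: Vps13a, Vps13b, Vps13c, Vps13d, Snx13, Snx25 and Snx30. They could be tested only because they were above 1 elsewhere, and all 7 were higher in eIF4E, as were 91.5% of the 1100 tested genes with Input values that low. Among the other 64 genes, 32 were higher and 18 lower (50.0% and 28.1%), with a median log2 change of 0.18. The same limit on all genes left 11669, of which 38.8% were higher and 33.5% lower, with a median of 0.05. Since Input is also the denominator of the change, this limit itself moves the counts. A second version, chosen after seeing the data, kept only genes at or above 1 in both Input libraries and gave 30 higher and 18 lower of 62. The split also moved with the scaling between libraries. Median-of-ratios scaling shifted the median of all genes by −0.27 and gave 31 higher and 27 lower genes (34.6% and 41.2% of all genes). Quantile normalization also shifted it by −0.27 and gave 29 and 19 (33.7% and 40.3% of all genes), and equal library totals shifted it by 0.22 and gave 42 and 10 (50.9% and 21.4% of all genes). Of the 57 changed genes, 36 kept their direction and passed the test in every alternative in which they were tested, 26 of them higher and 10 lower.

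**Figure D1:**
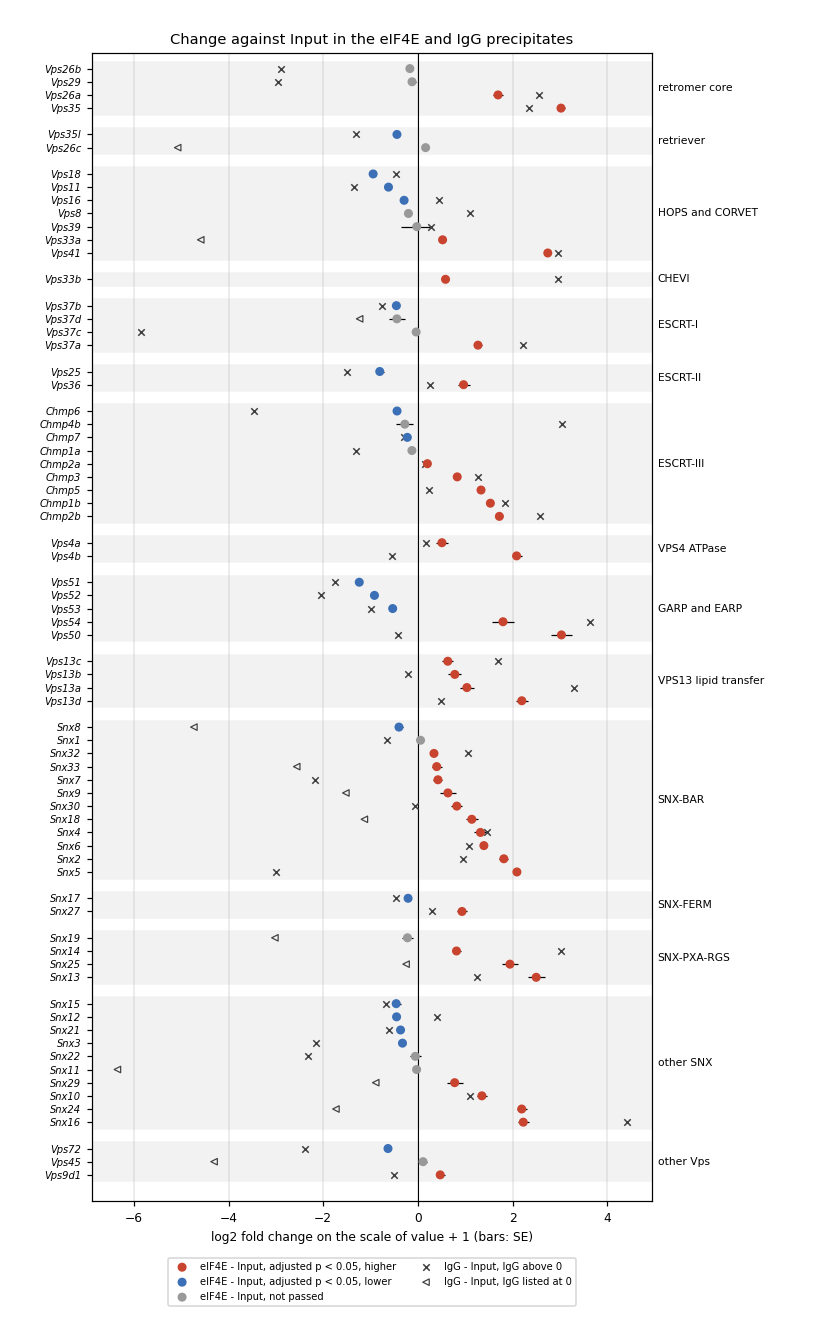
Log2 fold change of each of the 71 genes, grouped by role, in eIF4E against Input and in IgG against Input, on the log2(value + 1) scale; bars are standard errors from limma for eIF4E. Changes in eIF4E run from −1.24 (Vps51) to 3.03 (Vps50), whereas those in the single IgG library run from −5.84 (Vps37c) to 4.41 (Snx16) among genes above 0 there; open triangles mark the 13 genes listed at 0 in IgG.

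The libraries of the 2 groups did not overlap for 65 of the 71 genes (91.5%), against 87.8% of all genes tested. The 6 that overlapped were Vps39, Vps37c, Chmp4b, Snx11, Snx22 and Vps45, none of which passed the test. With only 2 libraries a group, separation alone carries little weight, and among all genes 43.3% passed the test as higher and 30.6% as lower.

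**Figure D2:**
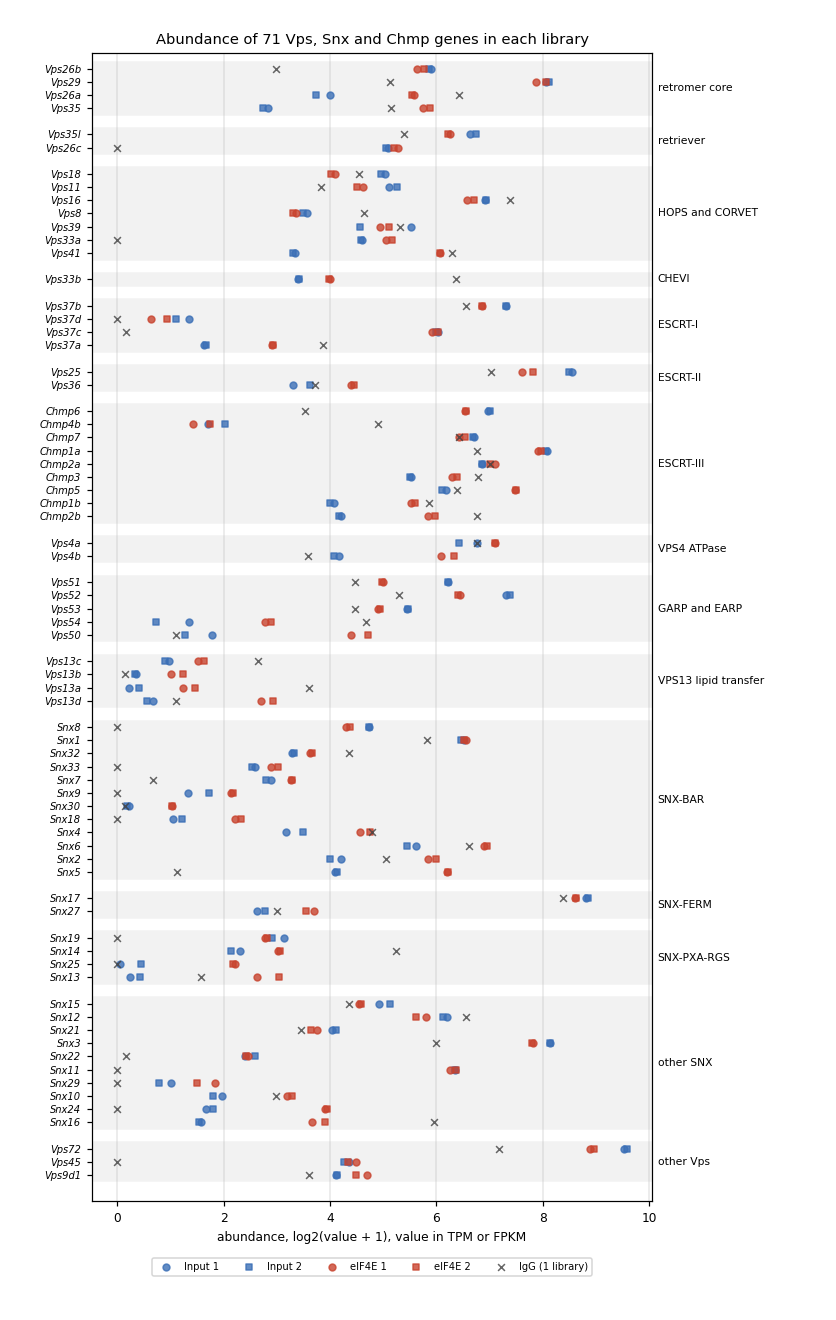
Abundance of each of the 71 genes in each of the 5 libraries, as log2(value + 1), grouped by role. For most genes the 2 libraries of a group lie close together, and 13 genes sit at 0 in IgG.

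Many genes of endosomes and lysosomes carry a CACGTG box near their start, the core of the element bound by TFEB and related factors, so the promoters of these genes were searched for that sequence (on both strands, since it is its own reverse complement). RefSeq promoters of build GRCm38.p6, from 250 bases before to 50 bases after the start, were found for 49 of the 71 genes, and 7 of them (14.3%) held the box, against 11.8% of the 9628 genes tested that have a promoter in the table. Of those 7, 5 were among the 26 higher genes with a promoter and 2 among the 10 lower ones, and none of the 13 genes that did not pass the test held one. With 7 genes, at a share near that of all genes, this split carries little weight. The share with a box among higher, lower and other genes of the whole table was not computed. In 4 of the 7 genes a box lay before the whole RefSeq span of the gene, and these stretches are shown because the genes went in opposite directions. In Vps33a, Snx5 and Vps50 each box lay within the gene's span. Each is written 5′ to 3′ on the gene's own strand with the box in capitals, from chr2:130424290-130424319 (plus strand), chr10:62486970-62486999, chr5:140389391-140389420 and chr13:113618733-113618762 (minus strand for these 3), in this order:
Vps16: aggcggcctcgtCACGTGaccccgaagggc
Vps26a: cgcacggctcgtCACGTGacaactagctct
Snx8: cccggccgcggcCACGTGgttggggcgtgg
Snx18: cctcccacccacCACGTGgtcactcaagcg
Vps16 and Snx8 were lower in eIF4E than in Input, and Vps26a and Snx18 were higher, as were Vps33a, Snx5 and Vps50. The calls of Vps16 and Snx8 were lost with equal library totals (−0.05 and −0.17 on the log2 scale), and that of Vps33a with median-of-ratios scaling (0.21). A transcription start of C followed by 4 pyrimidines, as in the terminal oligopyrimidine motif of messages controlled through mTOR, was found in 1 of the 49 genes (Snx21, 2.04%) and in 3.08% of the genes tested.

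Retromer is built from VPS35, VPS29 and either VPS26A or VPS26B, and its 4 genes fell into 2 kinds. Vps35, the scaffold of the complex, whose human gene is mutated in a familial form of Parkinson disease, stood at 52.98 and 57.68 in the eIF4E libraries, 6.15 and 5.71 in Input and 34.19 in IgG. Both eIF4E libraries were far above both Input libraries, a difference of 8.13-fold (log2 3.02 ± 0.08 SE, limma adjusted p = 6.1e-05). Vps35 spans chr8:85260385-85299517 in GRCm38.p6. Vps26a, one of the alternative arrestin-like subunits, stood at 46.63 and 45.26 in eIF4E, 14.92 and 12.25 in Input and 84.86 in IgG, and was 3.23-fold higher in eIF4E than in Input (limma adjusted p = 2.2e-04). Its paralog Vps26b had 48.96 and 53.48 in eIF4E, 58.31 and 57.09 in Input and 6.86 in IgG. Vps29, the subunit that binds regulators of the complex, was the most abundant of the 4, with 232.85 and 265.33 in eIF4E, 265.89 and 276.09 in Input and 34.06 in IgG. Neither passed the test against Input (adjusted p = 0.0766 for Vps26b and 0.199 for Vps29), although with median-of-ratios scaling both passed as lower, and with equal library totals both values were slightly positive (0.07 and 0.12 on the log2 scale). Against IgG, Vps26b, Vps29 and Vps35 were 6.64-fold, 7.12-fold and 1.60-fold higher in eIF4E, and Vps26a was 1.83-fold lower.

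Retriever, a relative of retromer that recycles integrins together with SNX17, shares VPS29 with it. The genes of its own subunits are Vps35l and Vps26c. Vps35l was lower in eIF4E (75.62 and 73.44) than in Input (97.7 and 105.76), by 1.36-fold (limma adjusted p = 0.00254), with 40.72 in IgG, which eIF4E exceeded by 1.81-fold. Vps26c had 37.58 and 35.79 in eIF4E, 33.1 and 32.27 in Input, which did not pass the test (adjusted p = 0.0928), and was listed at 0 in IgG. Thus neither of these genes nor the shared Vps29 was higher against Input, except that with equal library totals Vps26c passed as higher.

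HOPS and its early-endosome relative CORVET share the subunits encoded by Vps11, Vps16, Vps18 and Vps33a; VPS39 and VPS41 are particular to HOPS and VPS8 to CORVET. Of these 7 genes, 2 were higher and 3 lower in eIF4E than in Input (43.3% and 30.6% of all genes). Vps41, which binds the late endosome through small GTPases, stood at 65.86 and 65.96 in eIF4E, 9.13 and 8.86 in Input and 77.21 in IgG. It was 6.70-fold above Input (log2 2.74 ± 0.06 SE, limma adjusted p = 5.2e-05) and spans chr13:18717292-18866811. Vps33a, which encodes the SNARE-binding subunit, had 32.12 and 34.88 in eIF4E and 23.19 and 22.87 in Input, a difference of 1.44-fold (limma adjusted p = 0.00348), and was listed at 0 in IgG. The 3 lower genes all encode subunits shared by both complexes. Median-of-ratios scaling gave 1 higher and 4 lower of the 7 (34.6% and 41.2% of all genes), and equal totals 2 and 2 (50.9% and 21.4%).

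Vps18 had 16.04 and 15.19 in eIF4E, 31.92 and 30.11 in Input and 22.34 in IgG, and was 1.93-fold lower in eIF4E than in Input (limma adjusted p = 3.6e-04). Vps11 had 23.49 and 21.77 in eIF4E, 33.56 and 37.24 in Input and 13.16 in IgG, a 1.54-fold lower level than Input (limma adjusted p = 0.00235). Vps16, the most abundant of the 7, had 93.78 and 103.21 in eIF4E, 120.28 and 121.05 in Input and 165.48 in IgG, and its eIF4E level was 1.22-fold lower than Input (limma adjusted p = 0.0112). The call of Vps16 was lost with quantile normalization (−0.18 on the log2 scale) and with equal library totals (−0.05). For each of the 3, both eIF4E libraries lay below both Input libraries. Vps39 could not be read, since its Input libraries differed by themselves (44.71 and 22.72, with 29.48 and 33.43 in eIF4E and 38.95 in IgG). Its log2 change was −0.02 with both Input libraries, 0.45 without Input 1 and −0.50 without Input 2. Vps8 did not pass the test (9.26 and 8.85 in eIF4E, 10.87 and 10.24 in Input, 23.82 in IgG). In the comparison with IgG, Vps11 was 1.67-fold higher, and Vps41, Vps18, Vps16 and Vps8 were lower by 1.17-fold, 1.41-fold, 1.68-fold and 2.47-fold. The call of Vps41 against IgG was lost in at least 1 alternative.

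Vps33b, whose protein pairs with VIPAS39 in the CHEVI complex of recycling endosomes, had 14.98 and 14.8 in eIF4E against 9.53 and 9.69 in Input, a 1.50-fold higher level (limma adjusted p = 0.00123). Its IgG value of 81.65 was above both groups, and against IgG it was 5.20-fold lower. With quantile normalization Vps33b did not pass the test against Input.

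In ESCRT-I the 4 tested genes are versions of the VPS37 subunit. Vps37a, the one used when autophagosomes close, had 6.54 and 6.61 in eIF4E, 2.11 and 2.18 in Input and 13.59 in IgG, and was 2.41-fold higher than Input (limma adjusted p = 3.0e-04). It overlaps Cnot7 by 4106 bases and Mtmr7 by 2936 bases, and Cnot7 itself was higher in eIF4E (110.4 and 133.51) than in Input (51.89 and 43.26). Since strand was not marked, reads from sequence shared by the transcripts of overlapping genes may not be told apart. The overlaps given here are of whole genomic spans, and exons were not compared. Vps37b went the other way, with 115.01 and 115.04 in eIF4E, 157.96 and 158.21 in Input and 92.75 in IgG, a 1.37-fold lower level (limma adjusted p = 6.9e-04). Vps37c had 59.15 and 64.16 in eIF4E, 64.05 and 62.5 in Input and 0.12 in IgG, and Vps37d had 0.55 and 0.92, 1.55 and 1.16, and 0. Neither passed the test against Input, and Vps37c overlapped between the groups. Median-of-ratios scaling gave 3 lower genes here. Against IgG, Vps37b, Vps37c and Vps37a gave 1.24-fold higher, 55.9-fold higher and 1.93-fold lower levels in eIF4E, the first of which turned negative with quantile normalization (−0.01) and equal totals (−0.04).

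ESCRT-II bridges ESCRT-I to the filament-forming subunits, and its 2 tested genes moved apart. Vps25, one of the most abundant genes of the set, had 195.3 and 225.37 in eIF4E, 374.81 and 360.37 in Input and 129.18 in IgG, and was 1.75-fold lower than Input (limma adjusted p = 8.8e-04). Vps36, whose protein binds ubiquitin and phosphoinositides, had 20.15 and 20.85 in eIF4E, 8.88 and 11.3 in Input and 12.06 in IgG, and was 1.95-fold higher (limma adjusted p = 0.00214). Against IgG, both were higher in eIF4E (1.62-fold and 1.65-fold). That call was lost for Vps25 with quantile normalization (0.21 on the log2 scale) and for Vps36 with equal totals (0.40).

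ESCRT-III subunits polymerise into the spirals that pinch off membrane necks at endosomes, the midbody and the nuclear envelope. Of 9 tested genes, 5 were higher and 2 lower in eIF4E against Input (43.3% and 30.6% of all genes). The 3 largest changes were upward, and the median log2 change was 0.20, near the 0.16 of all genes. Median-of-ratios scaling gave 4 and 3 (34.6% and 41.2% of all genes), and equal totals 5 and 1 (50.9% and 21.4%). Chmp2b, mutated in a hereditary frontotemporal dementia, had 56.0 and 62.13 in eIF4E, 17.34 and 17.08 in Input and 107.34 in IgG, a 3.29-fold higher level than Input (log2 1.72 ± 0.07 SE, limma adjusted p = 9.8e-05). Chmp1b had 45.05 and 47.32 in eIF4E, 15.78 and 14.9 in Input and 57.28 in IgG (2.89-fold higher than Input, limma adjusted p = 1.0e-04). It lies wholly within Gnal, which stood at or below 0.58 in the eIF4E and Input libraries. Chmp5 had 176.82 and 179.11 in eIF4E, 71.94 and 68.23 in Input and 82.73 in IgG (2.52-fold, limma adjusted p = 8.5e-05). In these 3 genes both eIF4E libraries were more than double both Input libraries, but Chmp2b and Chmp1b were higher still in IgG.

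Chmp3 was 1.78-fold higher in eIF4E than in Input and also highest in IgG (108.79). Chmp2a was 1.15-fold higher (limma adjusted p = 0.0193), a direction that turned with median-of-ratios scaling (−0.12 on the log2 scale). Chmp6, which starts filament growth from ESCRT-II, had 92.29 and 92.61 in eIF4E, 124.17 and 127.52 in Input and 10.56 in IgG, and was 1.36-fold lower than Input (limma adjusted p = 0.00121). Chmp7, which recruits the machinery to the nuclear envelope, had 85.02 and 91.58 in eIF4E, 104.13 and 102.36 in Input and 84.53 in IgG, and its 1.17-fold lower level (limma adjusted p = 0.0199) was 0.01 on the log2 scale with equal library totals. Chmp4b, the main filament subunit, was low in eIF4E (1.68 and 2.36) and Input (2.25 and 3.07), overlapped between them and stood at 29.04 in IgG. Chmp1a, mutated in a form of microcephaly with pontocerebellar hypoplasia, was abundant in both (239.71 and 250.42 in eIF4E, 268.74 and 266.7 in Input) and missed the threshold (adjusted p = 0.0518). Against IgG, 3 of the 9 were higher in eIF4E (Chmp6, Chmp5 and Chmp1a, by 8.08-fold, 2.14-fold and 2.25-fold). Another 4 were lower (Chmp4b by 10.0-fold, Chmp2b by 1.81-fold, Chmp3 by 1.36-fold and Chmp1b by 1.24-fold). Of all genes, 53.1% were higher and 30.6% lower than IgG.

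The VPS4 ATPases take the ESCRT-III filaments apart, and both genes were higher in eIF4E than in Input. Vps4b had 66.87 and 79.17 in eIF4E, 17.04 and 15.77 in Input and 10.94 in IgG, a level 4.24-fold above Input (log2 2.08 ± 0.10 SE, limma adjusted p = 1.4e-04). Its level was also 6.18-fold above IgG (limma adjusted p = 6.7e-05). It spans chr1:106770788-106796725. Vps4a had 136.23 and 136.91 in eIF4E, 108.21 and 84.85 in Input and 108.11 in IgG, which was 1.42-fold above Input (limma adjusted p = 0.017) and did not differ from IgG past the threshold (adjusted p = 0.0937). In Vps4b both eIF4E libraries were above all 3 others by a wide margin, and in Vps4a they were above them narrowly. The call of Vps4a was lost in at least 1 alternative.

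GARP and EARP tether endosome-derived vesicles to the Golgi and to recycling endosomes, with VPS51, VPS52 and VPS53 shared, VPS54 particular to GARP and VPS50 to EARP. All 5 genes passed the test: the 3 shared subunits were lower in eIF4E than in Input and the 2 particular ones higher, under each of the 3 other scalings as well. Vps50 had 19.99 and 25.25 in eIF4E, 2.42 and 1.41 in Input and 1.15 in IgG, which was a level 8.18-fold above Input (log2 3.03 ± 0.22 SE, limma adjusted p = 3.2e-04), close to the change of Vps35. It was also 10.9-fold above IgG (limma adjusted p = 2.6e-04). Both eIF4E libraries lay far above the other 3, and the gene spans chr6:3498393-3603531. Vps54, which is mutated in the wobbler mouse with motor neuron loss, had 5.83 and 6.45 in eIF4E, 1.54 and 0.66 in Input and 24.45 in IgG, so that it was 3.47-fold above Input (limma adjusted p = 0.00189) and 3.57-fold below IgG.

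Vps51 had 30.95 and 30.45 in eIF4E, 73.78 and 73.86 in Input and 21.17 in IgG. Its level in eIF4E was 2.36-fold lower than in Input (log2 −1.24 ± 0.05 SE, limma adjusted p = 1.0e-04), the lowest change of the 71 genes, at chr19:6067842-6077187. Vps52 had 86.56 and 83.63 in eIF4E, 157.88 and 165.43 in Input and 38.55 in IgG (1.89-fold lower than Input, limma adjusted p = 1.8e-04). For Vps53 the values were 28.79 and 29.79, 42.68 and 42.99, and 21.03 (1.45-fold lower than Input, limma adjusted p = 0.00112). These 3 genes had an order of Input, then eIF4E, then IgG, with levels 1.43-fold, 2.18-fold and 1.38-fold above IgG in eIF4E. With equal totals Vps51 and Vps53 lost their calls against IgG (0.18 and 0.12 on the log2 scale).

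The VPS13 proteins are very large channels that carry lipids between membranes, and their genes are mutated in chorea-acanthocytosis (VPS13A) and Cohen syndrome (VPS13B). All 4 were below 1 in both Input libraries, so their being higher in eIF4E was in part a condition of being tested. Vps13d was clearest, with 5.47 and 6.56 in eIF4E, 0.59 and 0.47 in Input and 1.15 in IgG (4.58-fold above Input, limma adjusted p = 2.1e-04). It overlaps Dhrs3 by 35676 bases, a gene at 2.83 and 3.45 in eIF4E and 6.63 and 5.47 in Input. Vps13a had 1.36 and 1.74 in eIF4E, 0.16 and 0.33 in Input and 11.2 in IgG (2.05-fold above Input). Vps13b had 1.02 and 1.35, 0.28 and 0.26, and 0.1 (1.72-fold above Input), and Vps13c 1.86 and 2.09, 0.97 and 0.87, and 5.24 (1.55-fold above Input). In all 4 the eIF4E libraries were above Input, whereas Vps13a and Vps13c were highest in IgG. With quantile normalization only 2 of the 4 passed the test against Input. Against IgG, Vps13d was 3.25-fold and Vps13b 1.98-fold higher (Vps13b −0.79 on the log2 scale with quantile normalization), and Vps13a and Vps13c were 4.80-fold and 2.10-fold lower. Vps13d lost its call against IgG with quantile normalization (0.52).

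SNX-BAR proteins bend membranes into the tubules that carry cargo out of endosomes, and theirs was the largest group tested. Of 12 tested genes, 10 were higher and 1 lower in eIF4E against Input (43.3% and 30.6% of all genes). Their median log2 change was 0.73, against 0.16 for all genes. Snx30, among the 10, was below 1 in both Input libraries and in IgG and was tested only through eIF4E. Median-of-ratios scaling gave 6 higher and 2 lower (34.6% and 41.2% of all genes). Quantile normalization gave 6 and 1 (33.7% and 40.3%), and equal totals 11 and 0 (50.9% and 21.4%). Snx5, a partner of retromer cargo sorting that recognises the cation-independent mannose 6-phosphate receptor, had 72.8 and 73.07 in eIF4E, 16.13 and 16.59 in Input and 1.18 in IgG. It was 4.26-fold above Input (log2 2.09 ± 0.06 SE, limma adjusted p = 6.6e-05). Over IgG the difference was 33.9-fold (limma adjusted p = 1.1e-05). The eIF4E libraries were thus high and nearly equal, and the gene spans chr2:144250123-144270902. Snx2 had 56.71 and 62.29 in eIF4E, 17.42 and 15.02 in Input and 32.01 in IgG (3.52-fold above Input, limma adjusted p = 1.6e-04). For Snx6 the values were 117.94 and 123.45, 48.04 and 42.75, and 96.56 (2.63-fold above Input, limma adjusted p = 1.6e-04). Snx5 with Snx6, and Snx1 with Snx2, are alternatives for each place in the heterodimers formed by this group.

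Snx8 was the 1 lower gene, with 18.6 and 19.68 in eIF4E and 25.52 and 25.62 in Input (1.32-fold lower, limma adjusted p = 0.00772), and was listed at 0 in IgG. The call of Snx8 was lost with equal totals (−0.17 on the log2 scale). Snx1 had 93.58 and 91.27 in eIF4E, 90.39 and 87.49 in Input and 55.8 in IgG, and did not pass the test against Input (adjusted p = 0.355). Its small positive change turned negative with median-of-ratios scaling (−0.27). Snx32, a neuronal relative of Snx5 and Snx6, had 11.34 and 11.6 in eIF4E, 8.77 and 8.95 in Input and 19.57 in IgG (1.27-fold higher than Input, limma adjusted p = 0.0115), with a change of −0.10 under quantile normalization. The other 6 genes (Snx4, Snx7, Snx9, Snx18, Snx30 and Snx33) were higher by 1.32-fold to 2.50-fold, of which Snx33 and Snx7 also turned negative with quantile normalization (−0.18 and −0.10). In IgG, Snx8, Snx9, Snx18 and Snx33 were listed at 0. Snx4, which acts in recycling of the transferrin receptor, was as high in IgG (26.5) as in eIF4E (22.65 and 25.77). Against IgG, 10 of the 12 were higher in eIF4E and 1 lower (53.1% and 30.6% of all genes). Quantile normalization gave 7 and 2 (36.1% and 37.9% of all genes), and equal totals 9 and 2 (47.5% and 37.7%). The 10 include Snx8, Snx9, Snx18 and Snx33, which were listed at 0 in IgG. Snx1 was higher by 1.65-fold and Snx2 by 1.83-fold, and Snx32 was 1.65-fold lower. With quantile normalization Snx30 turned lower than IgG (−0.88 on the log2 scale). Snx6 was 1.25-fold higher than IgG, a direction lost with quantile normalization (−0.01) and equal totals (−0.03).

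The sorting nexins with a FERM domain, SNX17 and SNX27, read sorting signals in the tails of receptors. Snx17 was the most abundant Snx gene, with 390.71 and 393.5 in eIF4E, 447.04 and 459.35 in Input and 330.53 in IgG. Its 1.16-fold lower level in eIF4E than in Input (limma adjusted p = 0.00706) was reversed in sign by quantile normalization (0.06 on the log2 scale) and by equal library totals (0.03). Snx27, whose protein joins retromer to return glutamate receptors to synapses, had 12.05 and 10.7 in eIF4E, 5.16 and 5.82 in Input and 7.02 in IgG, and was 1.91-fold higher than Input (limma adjusted p = 0.0014). Against IgG, Snx17 was 1.19-fold and Snx27 1.54-fold higher, the first turning negative with quantile normalization (−0.46) and equal totals (−0.10). Snx27 lost its call against IgG with equal totals (0.32 on the log2 scale).

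Several SNX proteins with PXA and RGS domains sit at contacts of the endoplasmic reticulum. Of their 4 genes, 3 were higher in eIF4E than in Input (43.3% of all genes). Snx13 had 5.21 and 7.19 in eIF4E, 0.18 and 0.35 in Input and 1.99 in IgG (5.65-fold above Input, log2 2.50 ± 0.18 SE, limma adjusted p = 3.3e-04). Snx25 had 3.62 and 3.53 in eIF4E and 0.04 and 0.36 in Input (3.85-fold, limma adjusted p = 5.9e-04), and was listed at 0 in IgG. Both were below 1 in Input, so they could enter the test only through the other libraries. Snx14, mutated in a childhood cerebellar ataxia, had 7.07 and 7.3 in eIF4E, 3.94 and 3.38 in Input and 37.03 in IgG (1.76-fold above Input, limma adjusted p = 0.00167, and 4.65-fold below IgG). Snx19 had 5.89 and 6.04 in eIF4E, 7.76 and 6.52 in Input and 0 in IgG, and did not pass the test against Input.

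The other 10 tested sorting nexins split evenly, with 4 higher and 4 lower in eIF4E than in Input (43.3% and 30.6% of all genes). Median-of-ratios scaling gave 4 and 5 (34.6% and 41.2% of all genes), quantile normalization 3 and 4 (33.7% and 40.3%). Equal totals gave 4 and 0 (50.9% and 21.4%). Snx16, an endosomal regulator of receptor and cadherin traffic, had 11.58 and 13.92 in eIF4E, 1.98 and 1.88 in Input and 61.21 in IgG. Its eIF4E level was 4.68-fold above Input (limma adjusted p = 1.4e-04) and 4.54-fold below IgG (limma adjusted p = 1.4e-04). Snx24 had 13.94 and 14.43 in eIF4E, 2.18 and 2.47 in Input (4.57-fold, limma adjusted p = 1.2e-04) and 0 in IgG. Snx10, known for its role in osteoclasts and endosome shape, had 8.07 and 8.68 in eIF4E, 2.9 and 2.46 in Input and 6.87 in IgG (2.55-fold above Input, limma adjusted p = 4.6e-04). For these 3 genes the eIF4E libraries were well above Input, but only Snx24 passed the test as higher than IgG.

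On the lower side, Snx15 had 22.33 and 23.06 in eIF4E, 29.24 and 34.08 in Input and 19.44 in IgG (1.38-fold lower than Input, limma adjusted p = 0.00942). Snx12 had 54.63 and 47.95, 72.11 and 68.62, and 93.2 (1.37-fold lower than Input, limma adjusted p = 0.00621). Snx21 had 12.46 and 11.53, 15.3 and 16.2, and 9.98 (1.29-fold lower than Input, limma adjusted p = 0.0129). Each of these lower levels was small and lost its call in at least 1 alternative, as did that of Snx3, the retromer partner for Wntless, which was 1.25-fold lower (224.88 and 222.66 in eIF4E, 282.01 and 279.57 in Input). Snx29 was 1.71-fold higher, and Snx11 and Snx22 overlapped between the groups. Snx22 shares 1456 bases with Ppib, a gene at 248.82 or more in the eIF4E and Input libraries.

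Vps45, Vps72 and Vps9d1 belong to none of these complexes. Vps72, which despite its name encodes a subunit of chromatin remodellers, was the most abundant gene of the set, with 474.85 and 495.52 in eIF4E, 741.63 and 763.05 in Input and 142.8 in IgG, and was 1.55-fold lower than Input (limma adjusted p = 2.9e-04). Vps45, the partner of endosomal syntaxins, had 21.3 and 19.34 in eIF4E, 19.49 and 18.06 in Input and 0 in IgG, and overlapped between eIF4E and Input. Vps9d1, a putative activator of endosomal GTPases, had 25.03 and 21.3 in eIF4E, 16.25 and 16.51 in Input and 11.18 in IgG (1.39-fold higher than Input, limma adjusted p = 0.0103). Against IgG, Vps72 was 3.38-fold and Vps9d1 1.98-fold higher in eIF4E.

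A ratio of 2 genes within a library stays the same when that library is scaled by a constant. For that reason 19 pairs of paralogs or partner subunits were also compared that way. Quantile normalization can change such ratios, which were not recomputed with it. The pairs were chosen after the values were seen, so the ratios are a description, and with 2 libraries against 2 an exact two-sided permutation test could not go below p = 0.333. In 18 of the 19 pairs the eIF4E and Input libraries did not overlap, the exception being Vps33b to Vps33a. That count carries little weight, since the libraries of 87.8% of all single genes tested did not overlap either. The share over other pairs was not computed. The ratio of Vps50 to Vps51 was 0.646 and 0.829 in eIF4E and 0.0328 and 0.0191 in Input. Thus the message of the EARP-particular subunit was nearly as abundant as that of the shared subunit in the eIF4E libraries and scarce beside it in Input. Vps35 to Vps29 gave 0.228 and 0.217 in eIF4E and 0.0231 and 0.0207 in Input, and Vps41 to Vps18 gave 4.11 and 4.34 in eIF4E and 0.286 and 0.294 in Input. The pair of HOPS genes therefore changed order, since Vps41 was the lower in Input and the higher in eIF4E.

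Several paralogs that can replace each other in a complex also shifted in their ratio. Vps26a to Vps26b was 0.952 and 0.846 in eIF4E and 0.256 and 0.215 in Input, so that the alternative retromer subunits were near parity in eIF4E only. Vps4b to Vps4a was 0.491 and 0.578 in eIF4E and 0.157 and 0.186 in Input, and Snx2 to Snx1 was 0.606 and 0.682 in eIF4E and 0.193 and 0.172 in Input. Chmp1b to Chmp1a (0.188 and 0.189 in eIF4E, 0.0587 and 0.0559 in Input) and Chmp2b to Chmp2a (0.411 and 0.484 in eIF4E, 0.151 and 0.149 in Input) moved likewise. The less abundant paralog in Input gained in each of these 5 pairs. Other pairs went differently: in Snx5 to Snx32 the more abundant gene gained (6.42 and 6.30 in eIF4E, 1.84 and 1.85 in Input), Snx3 to Snx12 moved little (4.12 and 4.64 in eIF4E, 3.91 and 4.07 in Input), and Vps33b to Vps33a overlapped. In the single IgG library the ratios were 12.4 for Vps26a to Vps26b, 0.101 for Vps4b to Vps4a, 0.574 for Snx2 to Snx1, 0.529 for Chmp1b to Chmp1a and 0.84 for Chmp2b to Chmp2a, so only that of Vps4b to Vps4a lay below Input.

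**Figure D3:**
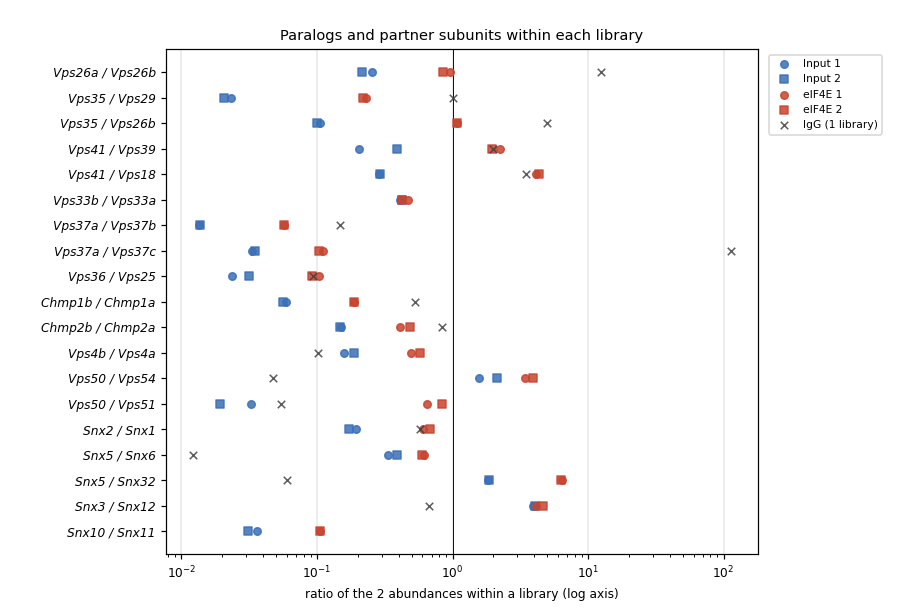
Ratio of 2 abundances within each library, on a log axis, for 19 pairs of paralogs or partner subunits. The pairs were chosen after the values were seen. In 18 pairs the eIF4E points lie apart from the Input points, and no IgG point is drawn for Vps33b to Vps33a and Snx10 to Snx11, whose second gene is listed at 0 in IgG.

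The control precipitate had large values of its own for these genes, and with 1 library it has no replicate check. In IgG against Input, 25 of the 71 genes were higher and 37 lower (37.8% and 50.3% of all genes), with a median log2 change of −0.45 against −0.43 for all genes. Quantile normalization gave 30 and 31 (39.5% and 40.5% of all genes), and equal totals 30 and 29 (45.6% and 42.8%). In eIF4E against IgG, 45 were higher and 18 lower (53.1% and 30.6% of all genes), with a median of 0.72 against 0.55. Quantile normalization gave 34 and 23 there (36.1% and 37.9% of all genes), and equal totals 38 and 21 (47.5% and 37.7%). These comparisons share libraries with eIF4E against Input. The most raised in IgG against Input were Snx16 (21.2-fold), Vps54 (12.4-fold) and Vps13a (9.82-fold), and of the genes above 0 in IgG the most lowered were Vps37c (57.4-fold) and Chmp6 (10.97-fold). IgG listed 13 of the 71 genes at 0 (18.3%, against 20.8% of all genes tested): Vps26c, Vps33a, Vps37d, Vps45, Snx8, Snx9, Snx11, Snx18, Snx19, Snx24, Snx25, Snx29 and Snx33. All 13 were above 0.5 in both eIF4E libraries, and Snx11 was as high as 75.84 and 81.95 there. Without those genes, 32 were higher and 18 lower of 58 in eIF4E against IgG (median 0.40), and 25 were higher and 25 lower in IgG against Input (median 0.16). Of all genes above 0 in all 5 libraries, fitted by themselves, 41.1% were higher and 39.8% lower in eIF4E against IgG (median 0.03). The same genes were 48.5% higher and 38.1% lower in IgG against Input (median 0.26). At the other end, Vps33b, Snx16, Snx14, Chmp4b, Vps13a and Vps54 were each at least 3.57-fold lower in eIF4E than in IgG (limma adjusted p of 0.00264 or less), and of these only Chmp4b was not higher in eIF4E than in Input.

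The genes that were higher in eIF4E than in Input tended to have long genomic spans, which no part of their choice by name used. Across the 71 genes, Spearman's rho between RefSeq span and log2 change was 0.435, and across 12399 genes with a span it was 0.401. The genes share the same 5 libraries and are not independent, so no p is given. In the shortest group of 24 genes (2529 to 19950 bases) 7 were higher and 12 lower in eIF4E, with a median log2 change of −0.22. In the middle 23 (20780 to 48107 bases) 14 were higher and 2 lower (median 0.83), and in the longest 24 (49016 to 560112 bases) 18 were higher and 4 lower (median 0.82). The longest group held all 7 genes below 1 in both Input libraries (Vps13a, Vps13b, Vps13c, Vps13d, Snx13, Snx25 and Snx30), each called higher. They could be tested only through their values in other libraries, and their part in rho was not tested. All genes within the same borders went 27.5% higher and 44.0% lower, 49.9% and 25.2%, and 65.8% higher with 462 of 3414 lower (medians −0.22, 0.31 and 0.71). The order of the groups by share called higher was thus shared with the rest of the table. In the lower calls and the medians, the middle and longest groups of these genes did not follow the order of all genes. Abundance moved with span too: the median in Input was 77.1 in the shortest group, 16.4 in the middle and 2.5 in the longest, and its part in the relation was not tested. In IgG against Input, rho was 0.299 for these genes and 0.389 for all, and in eIF4E against IgG it was −0.048 and −0.257.

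**Figure D4:**
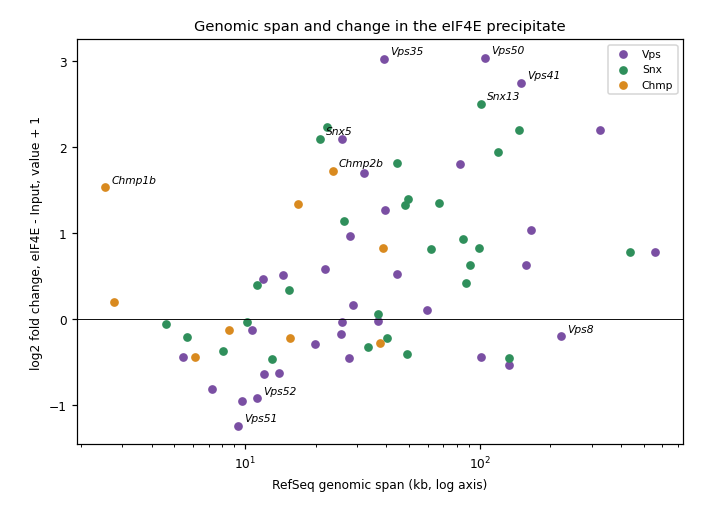
Log2 fold change in eIF4E against Input plotted on the RefSeq genomic span of each of the 71 genes (log axis), coloured by Vps, Snx or Chmp name. Most genes with spans under 20 kilobases lie near or below 0, and most longer ones lie above it.

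Genes that work with these complexes but carry other names were counted from fixed lists. For comparison, 43.3% of all genes tested were higher and 30.6% lower in eIF4E than in Input. Of 21 tested partners of HOPS, CORVET, CHEVI and GARP (SNAREs, GTPase regulators and the class III phosphoinositide kinase), 13 were higher and 4 lower in eIF4E than in Input, and the extremes were Vamp4, a SNARE of the Golgi (33.26 and 33.5 in eIF4E, 8.93 and 11.06 in Input, 49.78 in IgG), and Pik3r4, the scaffold of that kinase (5.43 and 5.9, 10.39 and 10.47, and 24.49). Retromer and nexin cargo gave 11 higher and 3 lower of 16, with Lrp8, the Reelin receptor, highest (17.44 and 19.04 in eIF4E, 1.62 and 2.11 in Input, 27.95 in IgG). It was 6.73-fold above Input (limma adjusted p = 1.1e-04), while its eIF4E values were below IgG (log2 −0.59, limma adjusted p = 0.0154). Sorcs2 was the lowest of them (0.45 and 0.37 in eIF4E, 1.2 and 1.0 in Input, 0 in IgG). In the WASH and Commander complexes, which act with retromer and retriever, 9 of 18 were higher and 5 lower, from Commd8 (131.23 and 143.39 in eIF4E, 27.02 and 26.85 in Input, 47.92 in IgG, 4.95-fold above Input) to Commd1 (318.45 and 324.02, 601.67 and 626.88, and 76.36). ESCRT-0 and ESCRT partners were nearly even, with 7 higher and 6 lower of 16, from the deubiquitinase gene Usp8 (15.89 and 17.83 in eIF4E, 5.38 and 5.16 in Input, 3.55 in IgG) to Mvb12a (78.65 and 79.6, 178.01 and 174.09, and 150.86). In eIF4E against IgG, the 4 lists in this order had 8 higher and 6 lower (median log2 change 0.01), 9 and 5 (0.83), 12 and 5 (1.41) and 8 and 6 genes (0.15). Of all genes, 53.1% were higher and 30.6% lower in that comparison (median 0.55). Against Input, median-of-ratios scaling gave the 4 lists, in this order, 8 and 6, 7 and 5, 6 and 8, and 6 and 7 higher and lower genes (34.6% and 41.2% of all genes). Quantile normalization gave 10 and 7, 8 and 5, 9 and 6, and 6 and 6 (33.7% and 40.3% of all genes). Equal totals gave 14 and 3, 11 and 1, 10 and 4, and 9 and 3 (50.9% and 21.4% of all genes). The 8 genes named kept their directions against Input under all 3 other scalings.

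RefSeq places another gene over part of 38 of the 74 genes, and over 15 of them a protein-coding one. Besides those given above, Vps26b shares 2835 bases with Thyn1, which had 106.65 and 111.05 in eIF4E, 94.58 and 95.44 in Input and 0 in IgG. Vps29 shares 401 bases with Fam216a (75.19 and 71.93 in eIF4E, 56.49 and 56.76 in Input). Vps54 and Ugp2 share 8 bases, and Vps51 and Tm7sf2 share 9. Ugp2 was higher in eIF4E (23.86 and 25.24) than in Input (5.58 and 6.87) and Tm7sf2 lower (31.6 and 35.64 against 74.45 and 76.85), as were Vps54 and Vps51 beside them.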

How the data were processed

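The authors deposited 1 abundance signal per gene and library, with 2 decimals and no log. STAR 2.7.9a, RSEM 1.3.3 and mm10 are named, per the submitters' processing notes; options and annotation version were not found in them. Smart-seq2 libraries, per the labels' protocols, prime on poly(A) and mark neither strand nor molecules. Whether the unit is TPM or FPKM is not stated; either way a constant per library separates them. RSEM divides reads between near-identical genes. The table has 50161 rows; 286 exact repeats of a gene ID were removed.

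Genes at or above 1 in at least 2 of 5 libraries were fitted with limma 3.58.1 in R 4.3.3 (log2 of value + 1, eBayes with trend, 3 groups, Benjamini-Hochberg adjustment, two-sided, threshold 0.05). The procedure was tested on simulated data. For IgG, with 1 library, the spread of the other groups was assumed. Members, classes and lists were chosen with earlier results of these data known. Named genes are all those of classes of up to 5 tested genes, the 3 highest and 3 lowest of larger classes, and the extremes of the partner lists; others named were chosen after their values were seen. Spans and promoters come from RefSeq (GRCm38.p6), matched by symbol for all 74 genes. Alternatives were 3 scalings, 2 pseudocounts, 2 filters, eBayes without trend, each eIF4E or Input library left out, the replicate block and a fit without IgG.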

Additional observations from a re-analysis of the deposited data

How the results depend on the processing

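Over 71 genes and 3 comparisons, 2659 recomputed values were compared with those reported: 2457 kept direction and call, 102 lost the call, 35 gained it and 65 changed sign. Depth is unknown, IgG is 1 library, and leaving out 1 library of a pair assumes that the other varies like the rest.

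In eIF4E against Input, the median log2 change of 0.42 became 0.14 with median-of-ratios scaling, 0.13 with quantile normalization, 0.65 with equal totals and 0.24 with a pseudocount of 5, and 10 genes were lower with equal totals. Its difference from the median of all genes was 0.14 with a pseudocount of 5 and 0.37 with no filter. In eIF4E against IgG, the median of 0.72 became 0.45 (quantile), 0.40 (equal totals), 0.52 (pseudocount 5) and 0.40 (genes above 0 in all 5 libraries), and its difference from all genes became 0.49 (quantile), 0.57 (no filter) and 0.37 (above 0 in all 5). In IgG against Input, the median of −0.45 became −0.73 (median of ratios), −0.02 (quantile), 0.01 (equal totals), −0.58 (pseudocount 0.1), −0.27 (pseudocount 5) and 0.16 (above 0 in all 5), and its difference from all genes 0.04 (quantile) and −0.37 (no filter). The cause of these changes was not tested.

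Leaving out 1 library gave 33 to 36 higher and 14 to 20 lower genes in eIF4E against Input, with medians of 0.37 to 0.45. The replicate block gave 38 higher and 18 lower and took the call from Chmp2a alone (adjusted p = 0.0524); deviations of libraries with the same number correlated at 0.024 over genes, so the numbers are not taken to pair them. Fitting without IgG gave 39 and 18.

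Signs changed in eIF4E against Input as follows, on the log2 scale. With median-of-ratios scaling, Vps26c became −0.15, Chmp2a −0.12, Snx1 −0.27 and Vps45 −0.20. With quantile normalization, Vps29 became 0.12, Chmp1a 0.12, Snx32 −0.10, Snx33 −0.18, Snx7 −0.10, Snx17 0.06 and Vps45 −0.17. With equal totals, Vps26b became 0.07, Vps29 0.12, Vps8 0.02, Vps39 0.21, Vps37c 0.20, Chmp7 0.01, Chmp1a 0.11, Snx17 0.03, Snx22 0.15 and Snx11 0.21. Without eIF4E 1, Vps39 was 0.06, Vps37c 0.02 and Snx11 0.03; without Input 1 and Input 2, Vps39 ranged from −0.50 to 0.45 and Snx22 from −0.14 to 0.03.

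In eIF4E against IgG, quantile normalization gave Vps37b −0.01, Vps37d −0.49, Chmp7 −0.23, Chmp2a −0.41, Vps4a −0.03, Vps13b −0.79, Snx30 −0.88, Snx6 −0.01 and Snx17 −0.46. Equal totals gave Vps37b −0.04, Chmp7 −0.29, Chmp2a −0.30, Vps4a −0.01, Snx6 −0.03, Snx17 −0.10, Snx15 −0.12, Snx21 −0.08 and Snx10 −0.06. In IgG against Input, median-of-ratios scaling gave Vps36 −0.01, Chmp2a −0.13, Chmp5 −0.04 and Vps4a −0.11. Quantile normalization gave Vps36 −0.18, Chmp7 0.07, Vps50 0.46, Vps13b 1.06, Snx30 1.20, Snx17 0.52, Snx27 −0.02, Snx25 0.64 and Snx29 0.07. Equal totals gave Vps18 0.12, Chmp7 0.30, Vps4b 0.01, Snx30 0.02, Snx17 0.14 and Vps9d1 0.04, and over the fits without Input 1 or Input 2, Vps39 ranged from −0.19 to 0.75 and Vps4a from −0.00 to 0.35.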
